A study of Homo sapiens with 6 samples.

Results

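The BCL2 family decides whether a cell keeps its mitochondrial outer membrane intact, and 10 of its genes were followed here: the pro-survival genes BCL2, BCL2L1 and MCL1, the effectors BAX and BAK1, and the BH3-only genes BID, BAD, BCL2L11, BBC3 and PMAIP1. They were chosen by gene name, and all 10 were found among the 28847 genes of the deposited table and were tested. The data are polyadenylated RNA from 6 libraries of cells labelled THP-1, a human monocytic leukaemia line used as a macrophage model. The control group held 3 libraries of THP-1 cells alone, and the other group held 3 libraries of THP-1 cells given recombinant human RBP4, the blood carrier of retinol. Every library was labelled with that same cell line, and the series describes the model as M0 macrophages, the name for macrophages that have not been polarized. The dose, the length of exposure and any agent that made the cells M0 were not given in the sources used here. Nothing in the labels says that the libraries came from separate cultures, so the p-values measure the spread between these libraries, which may be technical.

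In this family, effector proteins open pores in the outer membrane of the mitochondrion, which releases cytochrome c and starts the caspase cascade. Pro-survival proteins hold effectors and BH3-only proteins in a groove on their surface. BH3-only proteins are sensors of stress: they fill that groove, or engage the effectors directly, through a short helix called the BH3 domain. Blood cells and their precursors are known to depend on BCL2L1 or MCL1 for survival.

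Each library held between 15202000 and 16420517 reads, as recovered from the deposited values, which are called normalized reads below because each is a whole read count over the size factor of its library. Most markers of the labelled cell type were near 0. Of 20 monocyte and macrophage markers, 17 were analysed and 3 (CD33, SPI1 and CTSS) reached 10 CPM (reads of a gene scaled to a common library total) in all 6 libraries, and CD14, the lipopolysaccharide co-receptor, was at 1.39 ± 0.647 normalized reads (SD, n = 3) in the control libraries and at 0 in the 3 RBP4 libraries. MRC1 and S100A8 were also at 0 in the RBP4 libraries, and CD163 in the control libraries. Of 20 red cell markers, 16 reached 10 CPM in all 6. Both marker sums moved with the group: the monocyte and macrophage list summed to between 124 and 131 CPM in the control and between 137 and 144 CPM in the RBP4 libraries, and the red cell list to between 2706 and 2716 and between 2425 and 2499 CPM. The transferrin receptor gene TFRC, on the red cell list, went from 901 ± 15.4 to 483 ± 15.0 CPM. T and B cell markers summed to between 9.12 and 12.7 CPM and between 9.25 and 10.6 CPM, and epithelial and fibroblast markers, led by KRT8, to between 468 and 479 CPM and between 404 and 424 CPM. Their part in the results below was not tested, and in bulk RNA fewer cells of a type and less RNA per cell cannot be told apart. The groups are therefore named by their labels only.

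The BH3 helix is what joins the members, and its coding sequence is shown because the 3 roles are told apart by how it is used. In GENCODE release 29 (GRCh38), a coding transcript of each of the 10 members held 1 match to the pattern of a leucine codon, any 3 codons, a codon for glycine, alanine or serine, an aspartate codon, any codon and a codon for a hydrophobic residue. The 24 bases of each match are printed from the 5′ end, with the leucine codon and the pair that ends in aspartate in capitals.
BCL2: CTCcgccaggccGGCGACgacttc
BCL2L1: CTGagggaggcaGGCGACgagttt
MCL1: TTAcgacgggttGGGGATggcgtg
BAX: CTCaagcgcatcGGGGACgaactg
BAK1: CTCgccatcatcGGGGACgacatc
BID: CTCgcccaggtcGGGGACagcatg
BAD: CTCcggaggatgAGTGACgagttt
BCL2L11: TTGcggcgtattGGAGACgagttt
BBC3: CTGcggcggatgGCGGACgacctc
PMAIP1: CTCaggagatttGGAGACaaactg
The fifth codon was of the glycine form GGN in 8 members, and differed in BBC3 and BAD. Over the 45 pairs of members, between 9 and 17 of the 24 bases were identical, with a median of 14. The 4 pairs at 17 bases were BCL2 with BCL2L1, BAX with PMAIP1, BAK1 with BID, and BAD with BCL2L11, so the highest likeness joined members of different roles in 2 of them. A match to the pattern was found in 7 of 16 annotated coding transcripts of BCL2L11, 4 of 11 of BID and 1 of 2 of PMAIP1. It was found in 4 of 7 of BAX, 4 of 6 of BAD and 8 of 9 of BCL2L1, and in all of those of the other members. Only transcripts whose coding sequence begins with ATG were counted, and the match was not required to be the printed stretch. The deposited values are per gene and do not separate transcripts with a match from those without it.

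Of the 10 members, 2 rose and 3 fell in the RBP4 libraries. The 2 that rose were the BH3-only genes BBC3, 1.51-fold higher, and PMAIP1, 1.24-fold higher. Those that fell were the pro-survival genes MCL1, 1.17-fold lower, and BCL2L1, 1.12-fold lower, and the BH3-only gene BID, 1.13-fold lower. BAX, BAK1, BCL2, BAD and BCL2L11 did not pass the threshold, an adjusted p of 0.05 in limma's moderated test over 15676 genes. Calls were common in this comparison: 50.6% of all genes tested passed, 24.5% raised and 26.1% lowered, so 5 calls among 10 members is a share near the background. Within the range of abundance of the members, 57.7% of protein-coding genes passed, 25.5% raised and 32.2% lowered. With the read counts recovered from the table, edgeR raised 3 and lowered 3 members beside calls for 50.5% of genes, and DESeq2 raised 2 and lowered 3 beside 31.6%. At the same threshold the authors' deposited table raised 2 members and lowered 3. It called 5931 genes, as many as DESeq2 did here, so it is not counted as separate support. Its share is 20.6% of 28846 genes with a p-value, while the DESeq2 share is over 18779 genes with an adjusted p. In normalized reads the groups did not overlap for 6 members (MCL1, BCL2L1, BID, BCL2L11, BBC3 and PMAIP1), beside 56.2% of all genes tested. With libraries scaled to their total reads, BCL2L1 and BCL2L11 overlapped and BCL2 did not. The median log2 fold change was -0.051 over the members and -0.0020 over all genes tested. Scaling by total reads instead moves the median of all genes from -0.0020 to 0.066. With it BBC3 and PMAIP1 were raised and MCL1 lowered as before, BCL2 and BAD were also raised, and BCL2L1 and BID no longer passed.

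**Figure D1:**
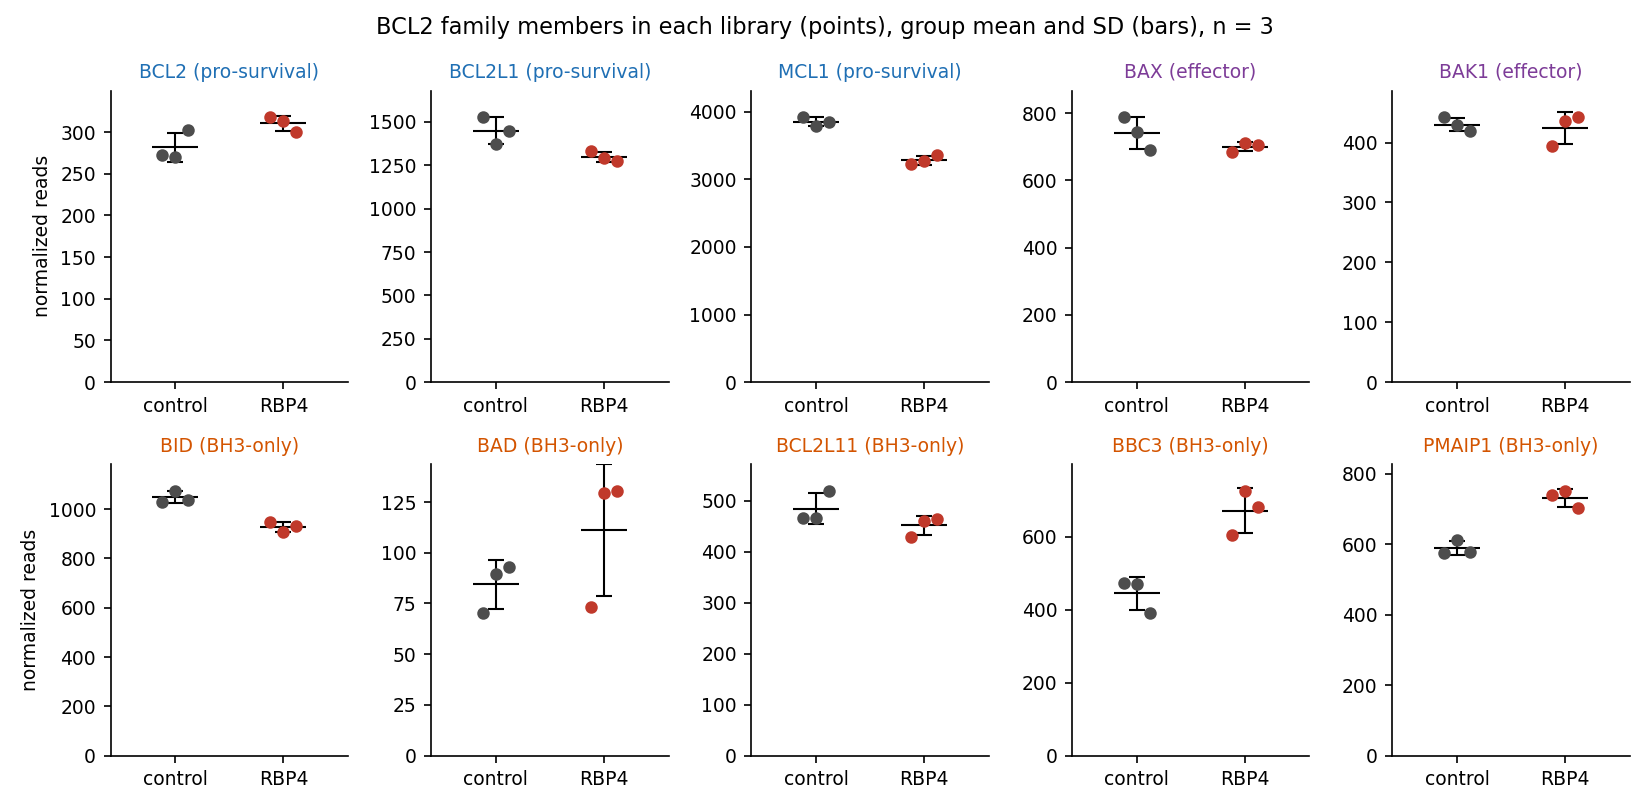
Normalized reads (vertical axes, from 0) of the 10 members in the 3 control libraries (grey) and the 3 RBP4 libraries (red), with group means and SD. BBC3 and PMAIP1 lie higher in every RBP4 library and MCL1, BCL2L1 and BID lie lower, while BAD is split within the RBP4 group.

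BBC3 encodes PUMA, a BH3-only protein that binds all the pro-survival proteins and is induced by DNA damage and by stress of the endoplasmic reticulum. It had 472, 469 and 391.9 normalized reads in control libraries 1, 2 and 3 and 605, 726 and 682 in RBP4 libraries 1, 2 and 3. Each RBP4 library lay above each control library, and the spread within a group was wider than for most other members. The mean went from 444 ± 45.3 to 671 ± 61.2 (SD, n = 3 per group), a log2 difference of 0.59 (SE 0.071, 95% interval 0.45 to 0.74, adjusted p = 6.54e-10 in limma). BBC3 (ENSG00000105327, chromosome 19, 47220822 to 47232766, minus strand, GRCh38) showed the largest change of the 10 members, and its change was past the threshold in all 14 alternative settings, with a log2 fold change of 0.51 to 0.67.

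PMAIP1 encodes NOXA, a BH3-only protein that binds mainly MCL1 and promotes its degradation. Its control libraries held 576, 613 and 578 normalized reads and its RBP4 libraries 740.4, 753 and 704. The lowest RBP4 library was above the highest control library, and the spread was small in both groups. The mean rose from 589 ± 20.5 to 732 ± 25.3, a log2 fold change of 0.31 (SE 0.059, 95% interval 0.20 to 0.43, adjusted p = 6.55e-06). PMAIP1 (ENSG00000141682) lies on chromosome 18, 59899948 to 59904306, on the plus strand.

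BID encodes a BH3-only protein that caspase-8 cleaves, which links death receptors to the mitochondrion. It moved the other way from BBC3 and PMAIP1. Control libraries held 1031, 1076 and 1039 normalized reads, and RBP4 libraries 948, 907 and 932. The groups did not overlap, and the mean went from 1048 ± 23.9 to 929 ± 20.6, a log2 difference of -0.17 (SE 0.049, 95% interval -0.27 to -0.076, adjusted p = 0.00226). The BID call was lost when libraries were scaled to their total reads (log2 fold change -0.11, adjusted p = 0.0677).

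BCL2L11 encodes BIM, which binds all the pro-survival proteins and is a known target of FOXO factors. It had 467, 467 and 520.4 normalized reads in the control libraries and 430.1, 459.8 and 465 in the RBP4 libraries. The groups were only just apart, control library 3 stood above the rest, and the difference did not pass (log2 fold change -0.10, 95% interval -0.24 to 0.04, adjusted p = 0.227). Exons of BCL2L11 share 727 bases with MIR4435-2HG on the opposite strand, a long non-coding RNA that fell from 821 ± 27.6 to 609 ± 27.8 normalized reads. The labels describe no strand-marking step, so reads of the shared bases cannot be assigned to either gene.

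BAD encodes a BH3-only protein that AKT phosphorylates, after which 14-3-3 proteins hold it in the cytosol. Among the 10 members it had the fewest reads, with 70.4, 89.6 and 93.2 normalized reads in the control libraries and 73.5, 129 and 131 in the RBP4 libraries. RBP4 library 1 lay inside the control range, and the other RBP4 libraries lay above it. The log2 difference of 0.36 (SE 0.174, adjusted p = 0.087) missed the threshold. Without RBP4 library 1 it was 0.63 and passed (adjusted p = 0.00122), and it also passed with edgeR on recovered reads (adjusted p = 0.0327), with total scaling (0.0423) and with the replicate number as a block (0.0435); its adjusted p ran from 0.00122 to 0.364 across 14 settings. BAD shares 404 exon bases with GPR137 on the opposite strand, which rose from 156 ± 12.5 to 235 ± 8.26 normalized reads, and reads of those bases cannot be assigned without strand.

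Because BBC3 and PMAIP1 were the members that rose, the sequence before their start sites is printed, from the RefSeq promoter table (GRCh38.p14), each on its own strand and without the bases that GENCODE marks as exon. Capitals mark matches to the motifs searched on both strands: the cyclic AMP response element short form CGTCA, the full element TGACGTCA, which contains it, the C/EBP-ATF element TGATGNAAT, the forkhead site GTAAACA and the E-box CACGTG. The PMAIP1 stretch is chr18:59899746-59899947 (plus strand) and the BBC3 stretch is chr19:47232767-47232917 (minus strand).
PMAIP1: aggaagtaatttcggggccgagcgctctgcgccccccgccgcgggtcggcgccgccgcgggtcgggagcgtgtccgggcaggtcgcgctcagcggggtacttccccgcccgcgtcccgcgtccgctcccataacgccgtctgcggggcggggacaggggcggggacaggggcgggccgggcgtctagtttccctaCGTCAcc
BBC3: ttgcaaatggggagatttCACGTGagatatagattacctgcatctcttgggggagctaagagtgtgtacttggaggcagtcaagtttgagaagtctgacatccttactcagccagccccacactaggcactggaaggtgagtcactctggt
The PMAIP1 match was CGTCA, 55 bases before the start site, and the BBC3 match was the E-box, 232 bases before it. Of the 10 members, 9 had an entry, with 15 windows of 300 bases. CGTCA was found in 6 of the 15 windows (of BAD, PMAIP1, BCL2, BAX and BCL2L1), beside 24.6% of all RefSeq windows of that length, and windows of 1 gene can overlap. The E-box was found in 4 windows, of BBC3, BID and BAX (7.26% of all windows), with 4 matches before BAX, 1 of which overlaps its CGTCA match. The forkhead site was in 1 window, of BCL2L11 (3.42% of all windows), and no member window held the C/EBP-ATF element (0.991%) or the full element TGACGTCA (1.85%). These are matches of letters only, and both raised and unraised members carry them.

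MCL1 encodes a short-lived pro-survival protein that is needed by many blood cells. It was the most abundant member in both groups. It had 3922, 3789 and 3848 normalized reads in the control libraries and 3228, 3266 and 3354 in the RBP4 libraries. The groups lay well apart, with a gap wider than the range within either group. The mean fell from 3853 ± 66.7 to 3282 ± 64.6, a log2 fold change of -0.23 (SE 0.032, 95% interval -0.29 to -0.17, adjusted p = 4.40e-09). MCL1 (ENSG00000143384) lies on chromosome 1, 150574551 to 150579738, on the minus strand, and its fall was past the threshold in all 14 alternative settings (log2 fold change -0.25 to -0.16).

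BCL2L1 encodes BCL-XL, the pro-survival protein that red cell precursors rely on. Its control libraries held 1529, 1370.4 and 1449 normalized reads and its RBP4 libraries 1332, 1289.8 and 1277. The lowest control library was above the highest RBP4 library by a narrow margin. The log2 fold change was -0.16 (SE 0.044, 95% interval -0.25 to -0.067, adjusted p = 0.00247), and it did not pass when libraries were scaled to their total reads (-0.088, adjusted p = 0.097). BCL2L1 makes a pro-survival and a shorter pro-apoptotic protein by splicing, which these values do not separate, and 1424 exon bases are shared with the antisense RNA ABALON, at 19.5 ± 8.58 and 22 ± 9.78 normalized reads.

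BCL2, the founding pro-survival gene, was low for its length. It had 272, 271 and 302 normalized reads in the control libraries and 318, 313 and 300.5 in the RBP4 libraries. Control library 3 was above RBP4 library 3, so the groups overlapped, and the log2 fold change of 0.14 (95% interval -0.027 to 0.31, adjusted p = 0.158) did not pass. With libraries scaled to their total reads it was 0.21 and passed (adjusted p = 0.0334).

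The effectors showed no change past the threshold. BAX, which moves from the cytosol to the mitochondrion when activated, had 789, 745 and 692 normalized reads in the control libraries and 684, 711 and 707 in the RBP4 libraries. BAK1, the effector that sits in the outer membrane, had 442, 429.6 and 419 and then 393, 435 and 443. Both genes overlapped between groups. The intervals of the log2 difference ran from -0.19 to 0.034 for BAX (adjusted p = 0.248) and from -0.17 to 0.12 for BAK1 (adjusted p = 0.813), which leaves room for a change of the size seen in BCL2L1.

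**Figure D2:**
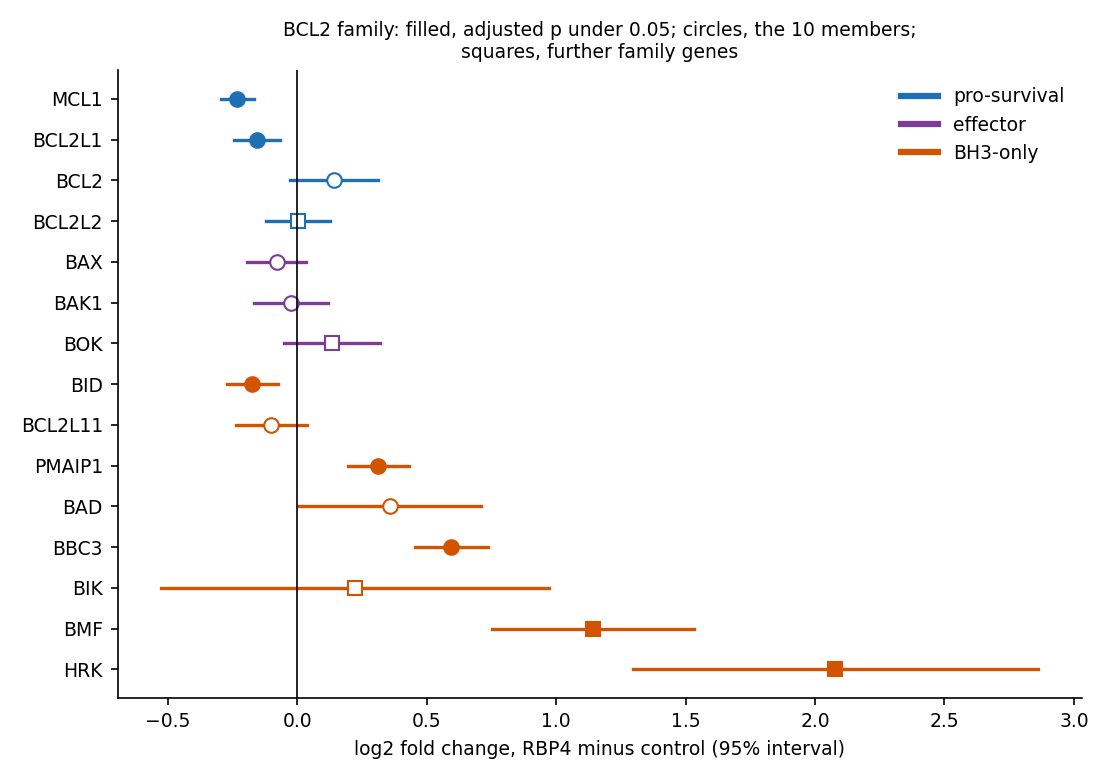
Log2 fold change of the RBP4 against the control libraries with 95% intervals (horizontal axis) for the 10 members (circles) and 5 further family genes (squares), coloured by role. Filled symbols passed an adjusted p of 0.05: MCL1, BCL2L1 and BID lie below 0, and PMAIP1, BBC3, BMF and HRK above it, HRK having been tested only because of its RBP4 level.

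Levels of different genes were compared per length, as RPKM: CPM divided by the deposited gene length in kilobases, which scales each library to its total reads. MCL1 led in the control libraries with 54.3 ± 0.997 RPKM, followed by BCL2L1 with 26.9 ± 1.5, BAX with 17.6 ± 1.19 and PMAIP1 with 16.2 ± 0.563. MCL1 alone made up 34.1% of the RPKM of the 10 members. BID stood at 14.5 ± 0.328, BAK1 at 11.97 ± 0.345 and BBC3 at 8.60 ± 0.890. The lowest members were BCL2L11 with 4.48 ± 0.279, BAD with 3.04 ± 0.436 and BCL2 with 1.47 ± 0.0900. In the control libraries each member lay above the next without overlap, except that BAX and PMAIP1 overlapped. Against all genes tested, MCL1 was above 95.5% of them per length in the control libraries, BCL2L1 above 89.2% and BCL2 above 27.7%.

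In the RBP4 libraries the order changed at 2 places. PMAIP1, with 21.1 ± 0.758 RPKM, stood above BAX, with 17.5 ± 0.324, and did not overlap it. BBC3, with 13.6 ± 1.22, reached the level of BID, with 13.5 ± 0.316, and overlapped it. BAK1 stood at 12.4 ± 0.748. MCL1 was still highest with 48.5 ± 0.858, and BCL2 lowest with 1.70 ± 0.0533. BAD and BCL2L11, at 4.198 ± 1.23 and 4.38 ± 0.175, overlapped.

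**Figure D3:**
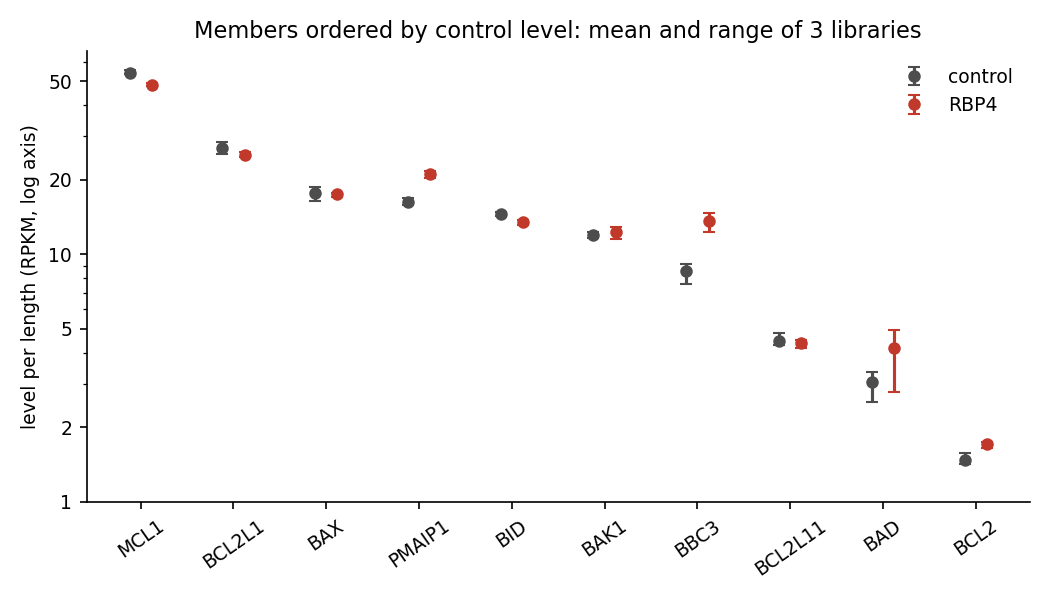
Level per length in RPKM (log axis) of the 10 members, ordered by their control level, as mean and range of 3 control (grey) and 3 RBP4 (red) libraries. MCL1 and BCL2L1 are the highest in both groups and BCL2 the lowest, and PMAIP1 stands above BAX in the RBP4 libraries only.

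The 3 roles were then compared, as values without a test because the members were chosen with earlier results of these data known. Of the pro-survival genes 2 of 3 fell, of the effectors 0 of 2 passed the threshold (0 also at an unadjusted p of 0.05 in limma, and 0 with edgeR or DESeq2), and of the BH3-only genes 2 of 5 rose and 1 fell. In the abundance range of the members 25.5% of protein-coding genes rose and 32.2% fell, and no role was tested against those shares. The median log2 fold change was -0.16 for the pro-survival, -0.051 for the effector and 0.31 for the BH3-only genes. Summed per length, the pro-survival genes held 85.2, 80.2 and 82.5 RPKM in the control and 75.5, 75.0 and 75.9 RPKM in the RBP4 libraries. The BH3-only genes held 46.2, 48.4 and 46.0 RPKM in the control and 54.5, 59.0 and 57.0 RPKM in the RBP4 libraries. These sums did not overlap between groups, the first 1.095-fold lower and the second 1.21-fold higher with RBP4. RPKM uses total reads as its scale, and with the deposited scaling, added after the data were seen, the sums were 1.15-fold lower and 1.16-fold higher, still without overlap. The effectors summed to 31.1, 29.7 and 28.1 and to 28.6, 30.4 and 30.5 RPKM, which overlapped on both scales. Effectors and BH3-only genes together summed to 76.5 ± 2.14 and 86.7 ± 3.21 RPKM. They stood below the pro-survival sum of 82.6 ± 2.49 in the control group and above that of 75.5 ± 0.434 in the RBP4 group. The sums follow the abundant genes: MCL1 for the first, and PMAIP1, BID and BBC3 for the second.

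Giving each gene equal weight made the contrast smaller. The mean log2 level per length of the pro-survival genes was then 3.69 ± 0.046 in the control and 3.68 ± 0.018 in the RBP4 libraries, and the groups overlapped. That of the BH3-only genes was 2.95 ± 0.047 and 3.22 ± 0.121, without overlap. On this scale of total reads, the lower pro-survival level was thus seen in the sum only. The equal-weight mean was not taken with the deposited scaling. On that scaling the log2 fold changes were -0.23 for MCL1, -0.16 for BCL2L1 and 0.14 for BCL2, the last not past the threshold. The mean log2 level of the pro-survival genes minus that of the 7 pro-apoptotic members was 0.52, 0.39 and 0.53 in the control and 0.41, 0.20 and 0.20 in the RBP4 libraries, a difference of -0.21. RBP4 library 1 lay within the control range. Against the BH3-only genes alone the values were 0.81, 0.64 and 0.76 and then 0.62, 0.38 and 0.39, without overlap. Against the effectors alone the difference between groups was -0.030, less than the spread between libraries.

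**Figure D4:**
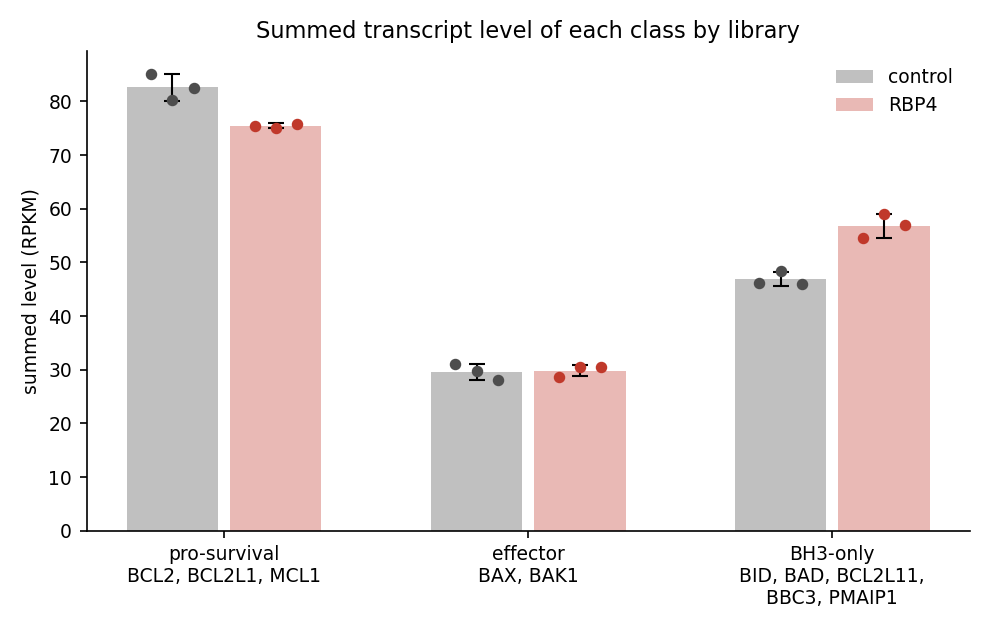
Summed level per length (RPKM, vertical axis from 0) of the pro-survival, effector and BH3-only members in each control (grey) and RBP4 (red) library, with group mean (bar) and SD. The pro-survival sum is lower and the BH3-only sum higher in every RBP4 library, and the effector sums overlap.

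Some members are known partners, so the ratio of their levels per length was taken within each library, where scaling of libraries has no effect. MCL1 to PMAIP1, the pair of NOXA and its main target, stood at 3.48, 3.16 and 3.40 in the control and 2.23, 2.22 and 2.44 in the RBP4 libraries. The ratio of BCL2L1 to BBC3 was 3.11, 2.81 and 3.55 in the control and 2.11, 1.71 and 1.80 in the RBP4 libraries. Neither ratio overlapped between groups, and both were lower with RBP4. In normalized reads, MCL1 and BCL2L1 were lower, and PMAIP1 and BBC3 higher, in every RBP4 library, while in RPKM BCL2L1 overlapped between groups. The separation of these ratios therefore follows from the single genes and adds nothing to them. BCL2 to BCL2L11 went the other way, from 0.330, 0.328 and 0.328 in the control to 0.418, 0.386 and 0.365 in the RBP4 libraries, without overlap. BCL2L1 to BAX, in contrast, was 1.53 ± 0.100 and 1.45 ± 0.0613, and the groups overlapped. These are ratios of RNA and were not tested.

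Further genes of the family outside the 10 were few and mostly low. BCL2L2, which encodes the pro-survival protein BCL-W, stood at 569 ± 13.5 and 571 ± 17.5 normalized reads. BCL2A1 and BCL2L10 were not analysed here. Of 4 further pro-apoptotic genes, BMF and HRK passed the threshold upward, HRK with the limit given below. BMF, a BH3-only gene whose protein is held on the cytoskeleton, had 38.3, 34.2 and 31.1 normalized reads in the control and 81.2, 82.1 and 68.7 in the RBP4 libraries, a 2.24-fold rise (log2 fold change 1.14, adjusted p = 1.08e-06). HRK, another BH3-only gene, went from 3.10, 7.04 and 6.42 to 25.1, 23.6 and 27.7 normalized reads (log2 fold change 2.08, adjusted p = 7.74e-06). HRK passed the filter on low values only through the RBP4 libraries, so a rise was built into its being tested and its p-value supports nothing further. Among protein-coding genes averaging 10 to 100 normalized reads, 34.9% rose and 6.09% fell. BOK, a relative of the effectors, and BIK, both named after their values were seen, did not pass (adjusted p = 0.226 and 0.646).

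Among 11 genes related to the family by sequence or binding, 8 were tested, of which 1 rose and 4 fell. For this list and the lists that follow, the background is 24.5% raised and 26.1% lowered among all genes tested. BNIP3 and BNIP3L, mitochondrial proteins that mark mitochondria for autophagy and are known to be induced by low oxygen, showed the largest falls. BNIP3 went from 3434, 3532 and 3674 to 1644, 1679 and 1696 normalized reads (2.12-fold lower, log2 fold change -1.08, adjusted p = 4.75e-38), and BNIP3L from 1744 ± 34.0 to 1109 ± 50.2 (1.57-fold lower). BCL2L13, which also acts in removal of mitochondria, rose from 1744 ± 41.8 to 2364 ± 79.1 normalized reads. BAG1, a co-chaperone that binds BCL2, fell 1.21-fold. BCL2L12, named after its value was seen, was also called lowered, but its groups overlapped (adjusted p = 0.0499 in limma). With edgeR, DESeq2 or total scaling, 3 genes of this list fell rather than 4, and total scaling raised 2 rather than 1.

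Downstream of the effectors, 15 genes were tested, of which 3 rose and 5 fell (median log2 fold change -0.12). CYCS, cytochrome c itself, fell 1.34-fold, from 6731 ± 216 to 5014 ± 195 normalized reads, and APAF1, which it binds to form the apoptosome, is not among the 4 smallest p-values but fell from 1078 ± 63.5 to 840.0 ± 26.1 and was named after its value was seen. VDAC1, VDAC2 and VDAC3, the outer membrane channels of which VDAC2 binds BAK1, fell 1.26-fold, 1.21-fold and 1.25-fold. The initiator CASP9, also named after its values were seen, stood at 523 ± 8.44 and 515 ± 48.2 normalized reads and did not pass. Of 6 tested IAP genes, which encode or resemble caspase inhibitors, 2 rose and 2 fell. BIRC3 rose 2.33-fold and XIAP, the direct caspase inhibitor, 1.09-fold, while BIRC6 fell 1.28-fold and BIRC5, survivin, 1.15-fold. With DESeq2, or without control library 3, RBP4 library 1 or RBP4 library 3, 1 IAP gene rather than 2 was raised.

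The death receptor arm reaches the mitochondrion through BID. It had 10 tested genes, with 5 raised and 1 lowered (median log2 fold change 0.22), beside 24.5% raised and 26.1% lowered among all genes tested. TNFRSF10B, the TRAIL receptor DR5 and a known target of the stress factor DDIT3, went from 1015, 1071 and 952 to 1427, 1426 and 1456 normalized reads (1.42-fold higher, adjusted p = 7.34e-15). CASP8, the protease that cleaves BID, rose 1.74-fold, from 137 ± 2.45 to 239 ± 12.6, and the kinase gene RIPK1 1.31-fold. TNFRSF1A, the main TNF receptor, rose 1.14-fold. TNFRSF10A, the TRAIL receptor DR4, was the gene that fell, from 359.7 ± 15.3 to 302 ± 22.9 normalized reads (log2 fold change -0.25, adjusted p = 0.00729), and was named after its value was seen. FAS, named after its values were seen, was near 0, at 3.42 ± 2.27 and 2.86 ± 0.922 normalized reads, and was not tested. DESeq2 raised 3 genes of this list and lowered 0, and total scaling lowered 0.

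Transcription factors and stress genes known to act on members were followed as a list of 18, of which 5 rose and 5 fell. These counts stand beside 24.5% raised and 26.1% lowered among all genes tested, and 9 genes of the list rose with total scaling. DDIT3, known to act on BBC3 and BCL2L11, rose from 375, 390.4 and 422 to 1962, 1867 and 1925 normalized reads. ATF4, the factor above it, rose 1.42-fold, ATF3 3.28-fold and the pseudokinase gene TRIB3 3.60-fold. MYC fell from 7504 ± 282 to 5464 ± 138 normalized reads, and STAT5A and STAT5B, known to drive BCL2L1 in red cell precursors, named with MYC after their values were seen, fell 1.24-fold and 1.21-fold. GATA1, which also acts on BCL2L1, stood at 3170.1 ± 83.9 and 3238 ± 22.2 (adjusted p = 0.448). FOXO3, known to act on BCL2L11 and BBC3 and named after its value was seen, stood at 913 ± 84.5 and 940.4 ± 27.0 (adjusted p = 0.498).

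Proteins that bind or degrade members formed the last list. Its 16 genes held 1 that rose and 8 that fell (median log2 fold change -0.11), beside 24.5% raised and 26.1% lowered among all genes tested. The 14-3-3 genes YWHAE, YWHAQ and YWHAZ, whose proteins hold BAD, fell 1.25-fold, 1.21-fold and 1.17-fold. HUWE1, a ubiquitin ligase of MCL1, had 11396, 11403 and 11448 normalized reads in the control and 10127, 10079.8 and 10094 in the RBP4 libraries, 1.13-fold lower. DYNLL1, the dynein light chain that binds BCL2L11 protein, was the gene that rose, 1.23-fold, and was named after its value was seen. With total scaling 4 genes of this list rose and 5 fell, and DESeq2 lowered 5.

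**Figure D5:**
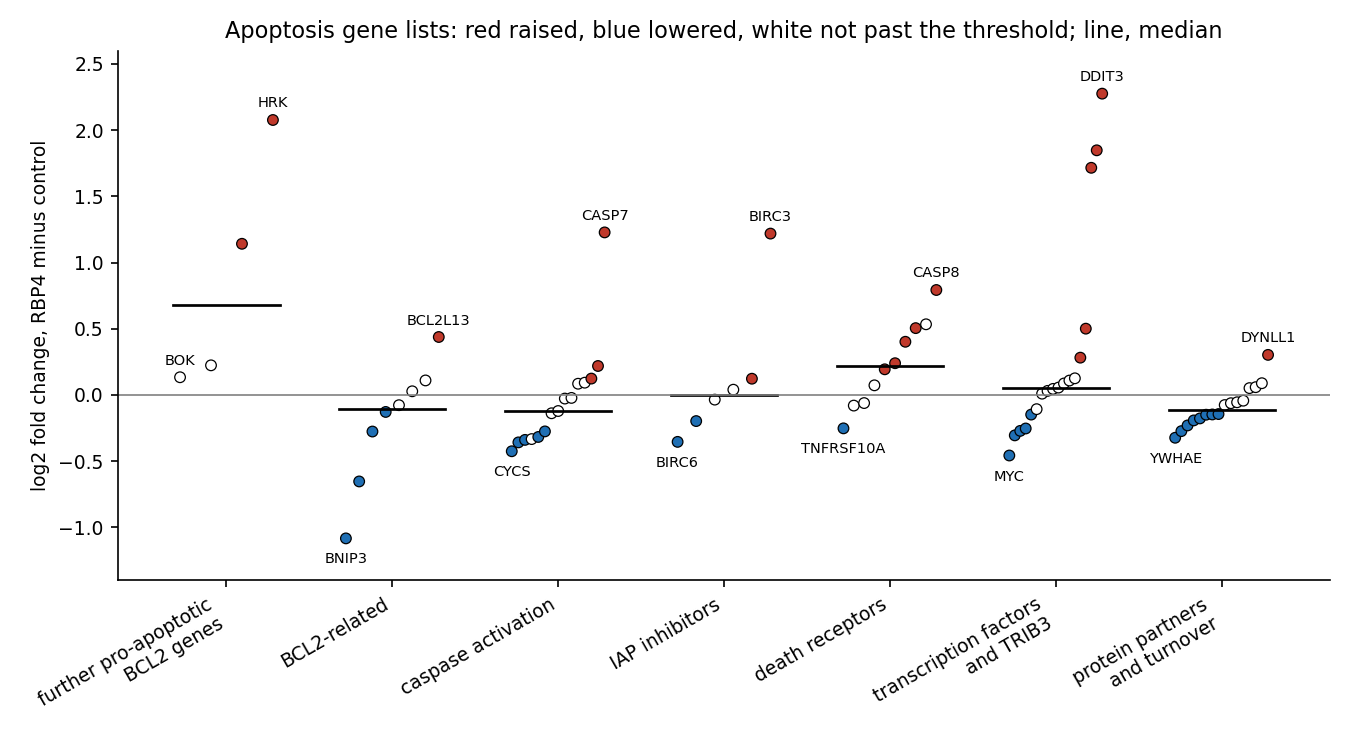
Log2 fold change of the RBP4 against the control libraries (vertical axis) for the tested genes of 7 apoptosis lists, 1 point per gene, with the median of each list as a line and its extreme genes named. HRK, DDIT3 and BIRC3 lie highest in their lists and BNIP3 is the lowest gene shown.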

How the data were processed

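Libraries were made with poly-T beads and a NEBNext Ultra kit, per the labels' protocols. Aligner, counter and genome build: not given in the sources used here. Values came as a single deposited table of normalized signal, and its steps are those of read counts over a size factor for each library. The authors' log2 fold change and p-value columns, per the file headers, were not used for any call. Dividing each library by its step gave whole reads for 100% of values (tolerance 0.01); all 28847 identifiers had the start and end of GENCODE release 29 (GRCh38). Columns of samples left unused numbered 0.

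Genes with at least 10 normalized reads in at least 3 libraries (15676) were fitted as log2(value + 1) with limma-trend, robust (R 4.3.3, limma 3.58.1), two-sided, with Benjamini-Hochberg adjustment over all of them and a threshold of 0.05. Fold changes without "log2" are ratios of group means; log2 values use the pseudocount of 1, so changes of low genes are understated. On the recovered reads edgeR 4.0.16 called 7921 genes (50.5%) and DESeq2 1.42.0 called 5931. Scripts were tested on simulated data. Within a group, no pair of libraries agreed within sampling noise (chi-square per degree of freedom 1.82 to 2.24). The members and gene lists were chosen with earlier results of these data known. Named were all members, up to 4 called genes of lowest p for each list (the 2 most abundant where 0 were called), and DDIT3, ATF4, TRIB3 and GATA1, with defining markers for the check of the label and genes that overlap a member; other names are marked where they occur. Some results under this rule, with 1 gene list, are not reported here. For DIABLO, which has 2 identifiers, the more abundant was used. Intervals cover the spread between libraries; precision at low values is limited by depth, 3 reads being 0.183 to 0.197 CPM.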

Additional observations from a re-analysis of the deposited data

How the results depend on the processing

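Of 588 recomputed values, 551 kept their direction and their side of the threshold, or stayed within 1.5 times for a count and within the spread between libraries for a difference of classes. With libraries scaled to their total reads, 4 members were raised and 1 lowered rather than 2 and 3, and 61.7% of all calls were upward rather than 48.4%. When 1 library was left out, 2 to 3 members were raised and 3 lowered. BAK1 changed sign under total scaling (0.045) and without RBP4 library 1 (0.030), BCL2L2 without control library 3 (-0.016) or RBP4 library 2 (-0.020), and BIK without control library 3 (-0.017), without passing the threshold. Leaving out 1 library gave -0.055 to 0.030 for BAK1, -0.020 to 0.023 for BCL2L2, -0.017 to 0.54 for BIK and -0.072 to 0.021 for the pro-survival minus effector difference. The pro-survival minus pro-apoptotic difference went from -0.21 to -0.31 with summed levels, and the pro-survival minus effector difference changed sign without control library 3. The summed effector level, 0.012 on the log2 scale in RPKM, was -0.057 with the deposited scaling, an alternative chosen after seeing the data. The cause of these changes was not tested. No replicate pairing was seen: deviations of libraries with the same number correlated at 0.0040, -0.0080 and -0.017. Such values cannot show whether libraries of the same number were prepared together, which the labels do not say. With the replicate block 3 members were raised (BAD in addition, adjusted p = 0.0435) and 3 lowered, and 7829 genes were called rather than 7934. Genes under about 100 normalized reads, such as BAD, BMF and HRK, have few reads behind them; BMF and HRK were not tested at 5 CPM or more.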
